A study of Homo sapiens with 11 samples.

Results

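Described here are the called JMJD1C peaks of Kasumi-1 cells that lie beside very long parts of the autosomes with no called peak. They were called in 1 library without a control, so JMJD1C binding is not separated from other sources of tags. A peak-free stretch was defined as 3 Mb or more between the end of one peak and the start of the next on chromosomes 1 to 22, and a flank as the 1 Mb on either side of it. The members were thus picked by the called positions of the peaks in this list, with no cutoff on tags, length or fold. Whether a peak is called depends on its tags, and the rule was set with earlier results of these data known. The rule found 38 stretches on 19 chromosomes, with 76 flanks that held 1119 of the 35185 autosomal peaks. The whole list, with X and Y, has 36191 peaks. Of the stretches, 18 hold the centromere of their chromosome and 20 lie elsewhere. The flanks of the centromeric stretches held 754 peaks and those of the other stretches 365 peaks, and 34066 autosomal peaks lay in neither. No peak belonged to more than 1 flank.

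Kasumi-1 cells, an established myeloblast line with the RUNX1-RUNX1T1 fusion from acute myeloid leukaemia, were grown in culture, with no treatment given in the labels. JMJD1C chromatin was precipitated with a serum raised by the submitters against the N-terminal part of the protein. The series holds 11 libraries from 4 lines, of which 4 are JMJD1C, 4 are LYL1 and 3 are input DNA, with 1 library for each line and target. Only the Kasumi-1 JMJD1C peak list was analysed here. It came from 29330355 tags, the aligned reads, of which the peak caller kept 19897991, and it was called without a control. With 1 library there is no spread between replicates, so no test was made and no p-value is given. The intervals below are exact 95% binomial or Poisson intervals. Their width reflects counting error, or how peaks vary inside a single library, and not biological replicates.

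JMJD1C belongs to the JmjC-domain family of histone demethylases and is known as a coregulator of transcription. Centromeres lie in long arrays of alpha satellite, a tandem repeat, and are bordered by pericentromeric DNA rich in satellites and in segmental duplications. The hg19 assembly writes the core of most centromeres as a placeholder gap without sequence, to which no read can be aligned. On chromosomes 1, 9 and 16 a further block of constitutive heterochromatin adjoins the centromere. Chromosome arms are largely sequenced, and some long parts of them are gene-poor. A stretch was called centromeric where it held the centromere position of hg19, taken to the nearest Mb from general knowledge of the assembly and not from the deposited files. No genome or annotation of hg19 was used, so the sites carry no gene, repeat or sequence here.

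The stretches themselves, which the rule defines, fell into a narrow range of length with 3 long exceptions. No peak can be called inside a placeholder gap, so a stretch that holds a gap is at least as long as the gap. Assembly gaps were not used here, so their part in these lengths was not tested. Among the 18 centromeric stretches the median was 3.11 Mb and 15 were shorter than 3.3 Mb. The longest was on chromosome 1, with 21.2 Mb between a peak ending at 121485478 and a peak starting at 142722907. Chromosome 9 followed with 18.4 Mb, between 47186399 and 65576307, and chromosome 16 with 11.1 Mb, between 35285677 and 46431991. These are the chromosomes with the large heterochromatin blocks. The 18 stretches summed to 97.2 Mb. Chromosomes 13, 14, 15 and 22 had no centromeric stretch because their lists begin beyond the centromere, with first peaks at 19712125, 19000427, 20002212 and 16190304. These are chromosomes whose short arms are largely unsequenced in hg19.

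The 20 other stretches lay on 11 chromosomes and summed to 70.4 Mb, with a median of 3.39 Mb. The longest was on chromosome 11, with 5.44 Mb between 96123538 and 101566176, and 1 in all was longer than 5 Mb. Next came chromosome 14 with 4.28 Mb, between 45723015 and 50003111. Chromosome 11 held a further pair, of 3.94 Mb between 39389435 and 43333255 and of 3.83 Mb between 78285977 and 82111878. Chromosome 9 had 3.78 Mb between 22212025 and 25994560, chromosome 8 had 3.56 Mb between 2585433 and 6148805, and chromosome 18 had 3.53 Mb between 68289503 and 71814749. Chromosome 9 had the most stretches of this kind, 4 in all.

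The limit of 3 Mb sits close to several stretches on either side. Just inside it were centromeric stretches on chromosomes 5, 4 and 7, of 3000084, 3000426 and 3000895 bp. Just outside were stretches on chromosomes 2, 3 and 18, of 2988052, 2973991 and 2948178 bp. At the other limit, the outermost peak inside a flank lay 997 kb from its stretch, on chromosome 20, with 46 tags. The nearest peak outside lay 1005 kb away, on chromosome 10, with 39 tags.

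**Figure D1:**
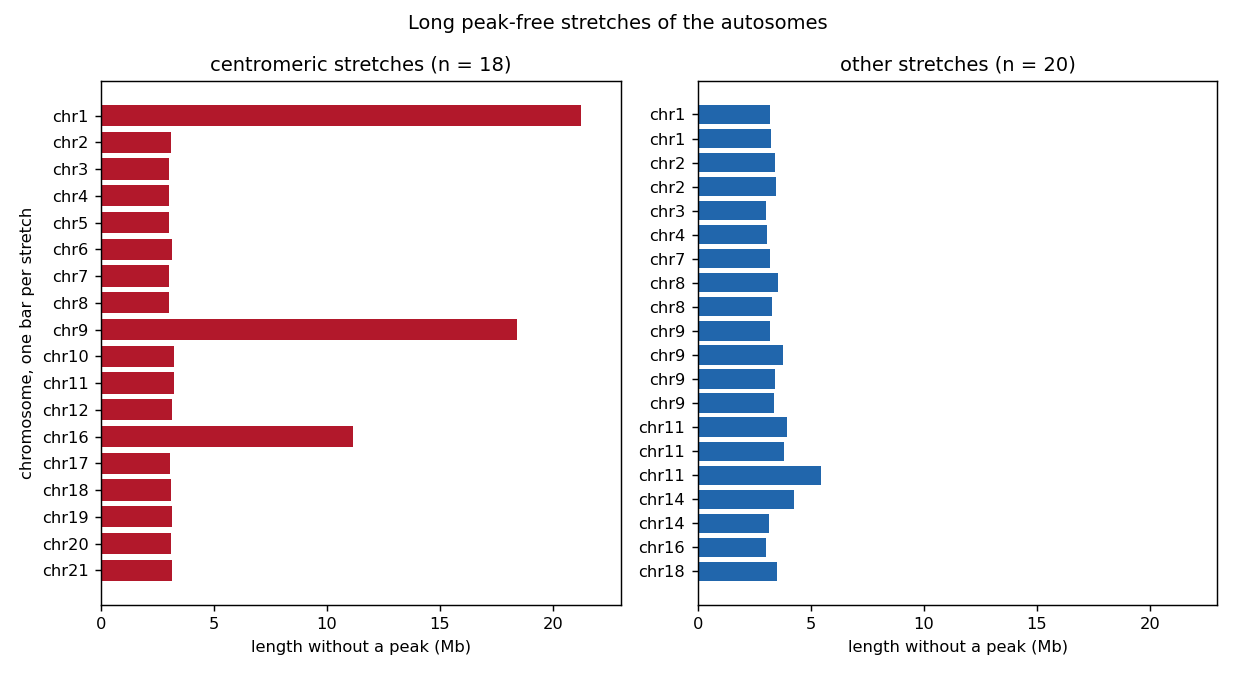
Bars give the length of each long peak-free stretch in Mb, from 0, with 1 bar per stretch, for 18 centromeric stretches (left) and 20 other stretches (right). The bars of chromosomes 1, 9 and 16 on the left reach 21.2, 18.4 and 11.1 Mb, and the longest bar on the right reaches 5.44 Mb.

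Flanks of centromeric stretches were dense in peaks and flanks of other stretches were sparse. The centromeric flanks held 20.9 peaks per Mb and the other flanks 9.12 peaks per Mb, against 13.4 peaks per Mb in the 2547 Mb of autosome outside the stretches and flanks. Peaks per Mb and spacing come from the positions that the rule used, so they are given as a description. Single flanks varied widely. The centromeric flank with the most peaks lay after the stretch of chromosome 7, with 58 peaks and 2861 tags. The one with the fewest lay before the stretch of chromosome 18, with 4 peaks and 83 tags. Among the other flanks, the most peaks lay after the longer stretch of chromosome 14, with 36 peaks and 2237 tags. At the low end, 6 of the 40 other flanks had the bounding peak alone, and 16 had at most 5 peaks. Of the 36 centromeric flanks, 1 had at most 5 peaks.

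Spacing followed the same split. The median gap to the nearest peak was 3858 bp in centromeric flanks (interval 3226 to 4725 bp) and 13784 bp in other flanks (11322 to 18400 bp), against 10266 bp for all other autosomal peaks (10060 to 10446 bp). Another peak lay within 10 kb of 72.5% of the peaks in centromeric flanks (547 of 754, interval 69.2% to 75.7%) and of 42.2% in other flanks (154 of 365, 37.1% to 47.4%), where 49.7% of all autosomal peaks had one. Peaks with no other peak within 100 kb made up 4.91% of the peaks in centromeric flanks and 13.97% in other flanks, where the share over all autosomal peaks was 5.72%. By the rule, a bounding peak has no neighbour for 3 Mb or more on the side of its stretch, which can lengthen its gap. Bounding peaks were 40 of the 365 peaks in other flanks and 36 of the 754 in centromeric flanks. As counted with them, centromeric flanks had short gaps and other flanks had more remote peaks. Spacing was not computed without them, so the part of the rule in the remote peaks of other flanks was not tested.

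Joined across gaps of up to 10 kb, the peaks of centromeric flanks formed 328 regions, of which 35 held 5 or more peaks. Those 35 regions held 44.2% of the peaks of centromeric flanks. In other flanks 2 of 276 regions held 5 or more peaks, with 2.74% of the peaks, against 5.79% of the peaks among all other autosomal regions. Among the regions of the flanks, the 2 with the most peaks, 22 each, ended exactly at a stretch, while the highest number elsewhere on the autosomes was 25. On chromosome 10 such a region ran from 39076571 to 39151495, with 1834 tags. On chromosome 5 it ran from 46326198 to 46405531, with 1218 tags. A region of 21 peaks on chromosome 21, from 10764741 to 10857098, lay 331 kb from its stretch and held 2230 tags. On chromosome 3, a region of 20 peaks from 90413604 to 90499128 also ended at the stretch and held 966 tags. These regions were chosen for their number of peaks, after their values were seen. In other flanks the 2 regions of 5 peaks lay on chromosome 8 from 82042577 to 82066642, with 401 tags, and on chromosome 14 from 50319131 to 50335346, with 225 tags.

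Each stretch is bounded by 1 peak on either side, and at centromeric stretches these pairs were very unequal. On chromosome 6 the peak before the stretch held 6233 tags and the peak after it 21 tags. On chromosome 16 the peak before held 21 tags and the peak after 2072 tags. On chromosome 1 the peak before held 2714 tags and the peak after 18 tags. The tag-rich member could thus lie on either side.

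Across the 18 centromeric stretches, 12 had a bounding peak of 100 tags or more, and in none of the 18 did both bounding peaks reach 100 tags. Among all autosomal peaks 10.2% reached 100 tags. The tag-richer peak held a median of 31.7 times the tags of the tag-poorer one, and in 11 of 18 stretches the ratio was 10 or more. The tag-richer peak lay before the stretch in 8 and after it in 10. Bounding peaks of centromeric stretches held 10 to 6233 tags with a median of 53, and 10 of the 36 were longer than 2000 bp, where 0.583% of all autosomal peaks were. The 40 bounding peaks of the other stretches held 9 to 198 tags with a median of 19.5. Of these 40, 2 reached 100 tags and none was longer than 2000 bp. Among them 22 had 20 tags or fewer, where 30.9% of all autosomal peaks did. The median ratio of their pairs was 2.09, the highest was 8.78, and the ranges of both kinds of bounding peak overlapped at the low end.

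The bounding pairs of the long stretches away from centromeres show how few tags such edges could hold. The 5.44-Mb stretch of chromosome 11 lay between a peak of 850 bp with 42 tags at a fold of 11.68 and a peak of 251 bp with 13 tags at a fold of 12.12. Fold is the authors' value and divides the height of the summit by the local background of the same library. The 40 bounding peaks of other stretches had a median fold of 12.485, the 36 of centromeric stretches 8.485 and all other autosomal peaks 10.82. These edges were thus low in tags but not in fold. The 4.28-Mb stretch of chromosome 14 lay between 88 tags at a fold of 5 and 14 tags at a fold of 15.82. The 3.94-Mb stretch of chromosome 11 had 17 tags before it at a fold of 10.33 and 72 tags after it at a fold of 13.93. The 3.83-Mb stretch of that chromosome had 29 tags before it at a fold of 7.33 and 9 tags after it at a fold of 13.88. Of these 4 pairs, the highest bounding peak held 88 tags. On chromosome 9 the 3.78-Mb stretch had 30 tags before it at a fold of 23.01 and 19 tags after it at a fold of 15.42. On chromosome 8 the 3.56-Mb stretch had 11 tags before it at a fold of 8.74 and 21 tags after it at a fold of 7.75. The peak of the 3.53-Mb stretch of chromosome 18 stood out among them: it ran from 68288616 to 68289503, held 198 tags (interval 171 to 228) and had a fold of 23.54, and its partner after the stretch held 25 tags.

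At the 3 longest centromeric stretches the pattern was mixed. Chromosome 9 had 19 tags before its stretch at a fold of 12.83 and 35 tags after it at a fold of 12.14, so neither edge was tag-rich. On chromosome 1 the peak of 2714 tags had a fold of 6.25, and its partner of 18 tags had a fold of 8.34. On chromosome 16 the peak of 21 tags had a fold of 9.36, and its partner of 2072 tags had a fold of 4.02. Both tag-rich peaks had a lower fold than their partners across the stretch.

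**Figure D2:**
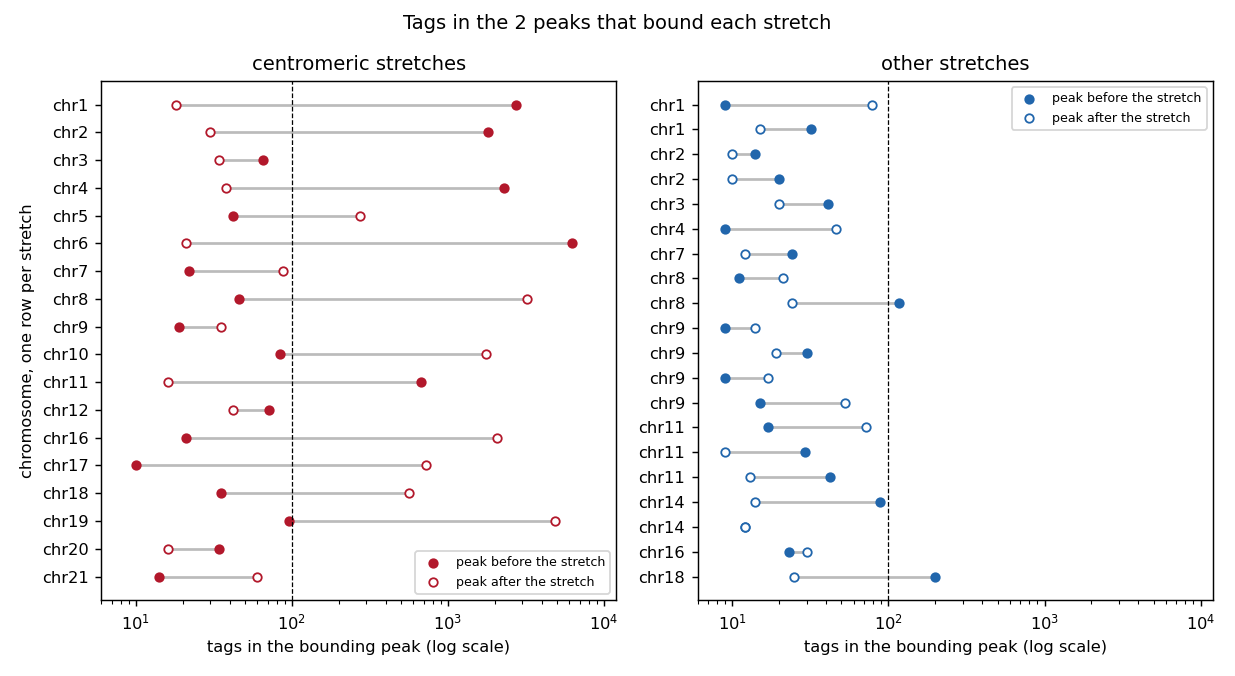
Each row is a stretch, and the 2 points are the tags (log scale) in the peak before it (filled) and the peak after it (open); the dashed line marks 100 tags. In the centromeric panel 12 of 18 rows have a point right of the line and none has both, while in the other panel 2 of 20 rows have a point beyond it.

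Peaks in centromeric flanks held more tags than other autosomal peaks, at a similar median length. The median was 41 tags in centromeric flanks (interval 39 to 46), 27 in other flanks (24 to 31) and 30 in all other autosomal peaks (30 to 30). In centromeric flanks the lowest peak had 9 tags, the quartiles were 24 and 79, and the highest had 6233. In other flanks the range was 9 to 198 with quartiles of 16 and 54. Median lengths were 476 bp in centromeric flanks (445 to 496) and 466 bp in other flanks (426 to 495), against 481 bp in the remaining peaks (478 to 484), so the intervals of the 3 medians overlapped. At the long end the classes parted, with a 90th percentile of 1321 bp in centromeric flanks and 901 bp in other flanks, against 944 bp. Tags per kb of peak had a median of 85.8 in centromeric flanks and 55.7 in other flanks, against 59.9 in all other autosomal peaks.

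The upper tail differed more than the middle. Peaks of 100 tags or more made up 17.6% of the centromeric flanks (133 of 754, interval 14.98% to 20.6%) and 7.67% of the other flanks (28 of 365, 5.16% to 10.9%), where 10.2% of all autosomal peaks reached that number. Peaks over 2000 bp made up 4.64% of the centromeric flanks (35 peaks, 3.25% to 6.40%) and 0.274% of the other flanks (1 peak), where the background share is 0.583%. Of the 11 autosomal peaks over 5000 bp, 8 were in centromeric flanks. Centromeric flanks thus held 2.14% of the autosomal peaks but 5.22% of the tags in them, and other flanks held 1.04% of the peaks and 0.848% of the tags. A few peaks carried that surplus: 27 of the 754 peaks held at least 50% of the tags of centromeric flanks. Of the 20 autosomal peaks with the most tags, 15 lay in centromeric flanks, none in other flanks and 5 elsewhere.

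Those 15 peaks lay on 10 chromosomes and had 1008 to 6233 tags. They were 2821 to 8997 bp long, with folds of 3 to 9.78 and a median fold of 5.51. Together they held 38516 tags, 42.2% of the tags of all centromeric flanks. Of the 15, 8 bounded a stretch and 11 lay within 50 kb of one. Without them, the centromeric flanks would hold 3.02% of the tags in autosomal peaks, still above their 2.14% of the peaks. Scores of the 15 varied: 2 stood at the caller's maximum, while the bounding peaks with 4857 tags on chromosome 19 and 2287 on chromosome 4 scored 87.61 and 73.79. The background in 10 kb includes the peak's own tags, and a long peak fills much of that window. The chromosome 8 peak of 8247 bp held 3235 tags against a background of 3368 per 10 kb. The part of length in these scores and folds was not tested. The median score was 91.09 in centromeric flanks (85.19 to 97.2) and 107.4 in other flanks (97.9 to 119.3). In all other autosomal peaks it was 106.5 (105.4 to 107.8).

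Chromosome 10 shows several such peaks in a row after its stretch. The bounding peak ran from 42397758 to 42401356, with 1767 tags (interval 1686 to 1851) at a fold of 4.7. A peak from 42542444 to 42546711 held 1351 tags (1280 to 1425), with a fold of 9.78, the highest fold of the 15. A peak from 42596648 to 42600877 held 2981 tags (2875 to 3090) at a fold of 6.2 and lay 199 kb from the stretch, with a score at the caller's maximum. The same flank had a median of 76 tags over its 23 peaks.

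Chromosomes 2 and 4 had their tag-rich peaks before the stretch. On chromosome 2, peaks from 92289521 to 92292341 and from 92292697 to 92298430 lay 355 bp apart, with 1274 and 1813 tags. On chromosome 4, the bounding peak from 49651554 to 49660139 was 8586 bp long and held 2287 tags at a fold of 8.1. A chromosome 4 peak from 49153758 to 49157647, 502 kb from the stretch, held 1292 tags at a fold of 5.05. The chromosome 4 flank had the highest median of all 76 flanks, 270.5 tags over 12 peaks, and 8 of the 12 reached 100 tags. On chromosome 5, a peak from 49436328 to 49441693 held 1149 tags at a fold of 4.16. On chromosome 8, a bounding peak of 8247 bp from 46838851 to 46847097 held 3235 tags at a fold of 3.85, which was 82.8% of the tags of its flank. The chromosome 6 peak of 6233 tags made up 98.5% of the tags of its flank, whose other 5 peaks were small.

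Some centromeric flanks had no tag-rich peak. The highest tag number was 35 before the stretch of chromosome 18, 43 after that of chromosome 2, 46 after that of chromosome 3 and 51 before that of chromosome 17. In 30 of 36 centromeric flanks at least 1 peak reached 100 tags, and in 10 of them 1 peak or more reached 1000. In other flanks 13 of 40 had a peak of 100 tags, and none reached 1000. Centromeric flanks had a median of 18 peaks and other flanks 7.5, and 10.2% of all autosomal peaks reached 100 tags. A flank with more peaks is more likely to hold such a peak, and the part of peak number in these counts was not tested. Set against the remaining peaks of the same chromosome, the median tag number was higher in 26 of the 36 centromeric flanks and lower in 10. In other flanks it was higher in 14 of 40 and lower in 26.

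Peaks of 100 tags or more had a median fold of 8.84 in centromeric flanks (7.63 to 9.91, 133 peaks) and 18.77 in other flanks (14.45 to 24.59, 28 peaks), against 17.1 in the remaining peaks (16.65 to 17.38). Their median length was 1395 bp in centromeric flanks (1141 to 1599) and 838 bp in other flanks (716 to 1062), against 1021 bp (1006 to 1040). Their median tag number was 197 in centromeric flanks and 125 in other flanks, against 144 in the remaining peaks. In other flanks the 8 with the most tags, 143 to 198 each, were 805 to 2045 bp long, and their folds ran from 8.89 to 27.24 with a median of 18.77. On chromosome 14, a peak from 45719102 to 45719906 lay 3.11 kb from its stretch and held 194 tags (168 to 223), with a fold of 19.36. The peak from 105010371 to 105011432 on chromosome 1 reached 185 tags (159 to 214) and a fold of 18.18. The highest fold of the 8 belonged to a peak on chromosome 2, from 152945494 to 152946336, which held 143 tags (121 to 168) and lay 641 kb from its stretch. A peak on chromosome 9, from 102581504 to 102582814, reached 157 tags (133 to 184) and a fold of 15.9.

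The peaks of highest fold were short ones in both kinds of flank. Beside centromeres the 5 highest folds were 36.12 to 44.72, with 29 to 135 tags and lengths of 150 to 528 bp. None of these 5 lay within 50 kb of its stretch. At the top was a peak of 150 bp on chromosome 17 (22020649 to 22020798), whose 29 tags (19.4 to 41.6) gave a fold of 44.72. The next was a peak of 176 bp on chromosome 19 (24184041 to 24184216), whose 47 tags (34.5 to 62.5) gave a fold of 41.82. In other flanks the 5 highest folds were 33.84 to 50.94. At the top was a peak of 252 bp on chromosome 11 (102118478 to 102118729), whose 40 tags (28.6 to 54.5) gave a fold of 50.94, and its nearest peak was 69.2 kb away. A peak of chromosome 7 from 68009024 to 68009141 bounded its stretch with 24 tags (15.4 to 35.7) at a fold of 37.01.

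**Figure D3:**
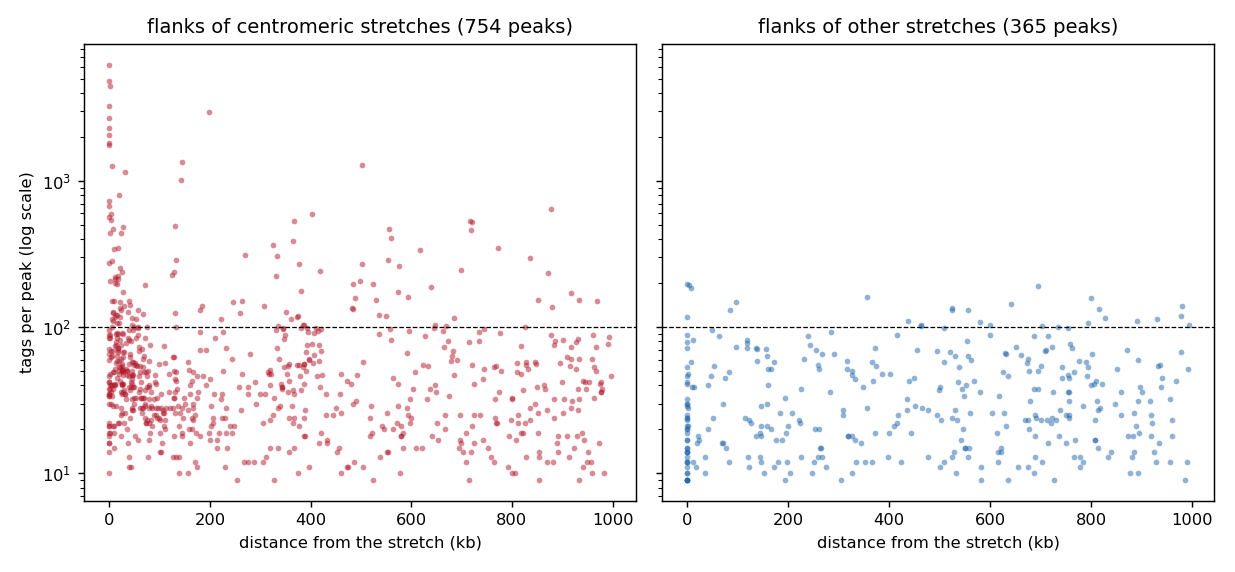
Each point is a peak, placed by its distance from the peak-free stretch (kb) and its tags (log scale), for 754 peaks of centromeric flanks (left) and 365 peaks of other flanks (right); the dashed line marks 100 tags. All 15 peaks of 1000 tags or more are in the left panel, and 11 of them lie within 50 kb of the stretch.

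The density of peaks in centromeric flanks fell with distance from the stretch, and 11 of the 15 peaks with the most tags lay within 50 kb of it. Between 50 kb and the stretch there were 205 peaks in the 36 flanks, of which 36 are bounding peaks that lie there by construction. Without the bounding peaks this zone held 93.9 peaks per Mb. The density was 42.8 per Mb at 50 to 100 kb, 20.9 at 100 to 250 kb, 15.3 at 250 to 500 kb and 12.3 at 500 to 1000 kb. The last value is close to the 13.4 per Mb of the remaining autosomes. The nearest 50 kb also held 55.7% of all tags of centromeric flanks. Its peaks had a median of 57 tags (interval 50 to 68), and 28.3% of them (58 peaks, 22.2% to 35.0%) had 100 tags or more. The other 75 of the 133 peaks of 100 tags or more lay farther out. They made up 7.79% of the peaks at 50 to 100 kb (6 peaks), 11.5% at 100 to 250 kb (13 peaks), 18.1% at 250 to 500 kb (25 peaks) and 14.03% at 500 to 1000 kb (31 peaks).

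Tags per peak did not fall steadily. The median was 37 (32 to 46) at 50 to 100 kb, 28 (26 to 35) at 100 to 250 kb, 46 (39 to 53) at 250 to 500 kb and 36 (30 to 42) at 500 to 1000 kb. In the next Mb, which lies outside the flanks, 452 peaks had a median of 30 tags, as in the remaining autosomes, although 15.7% of them had 100 tags or more.

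Flanks of other stretches had no such gradient. In the nearest 50 kb there were 60 peaks, of which 40 are bounding peaks, and the other 20 gave 10.0 peaks per Mb. Further out the density was 6.5, 8.0, 6.5 and 8.95 per Mb, always below the remaining autosomes. The nearest 50 kb held 15.2% of the tags of these flanks, and its median was 20.5 tags (16 to 30), against 31 (25 to 38) at 500 to 1000 kb, where the intervals overlap. In the bin from 50 to 100 kb there were 13 peaks, so its median of 45 tags (16 to 87) is poorly determined.

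The signal around each peak was recovered from its tags and its score, since the caller computes both the score and the fold against the tags in the 10 kb around the peak. A background was recovered for 698 of the 754 peaks of centromeric flanks and 349 of the 365 peaks of other flanks. Outside the peak itself, the median signal was 216 tags per 10 kb in centromeric flanks (interval 197 to 239) and 87.2 in other flanks (83.6 to 90.9), against 99.9 for all other autosomal peaks (99.3 to 100.5). The ratio to the remaining peaks was 2.16 for centromeric and 0.873 for other flanks. A signal of 200 or more was found around 52.6% of the peaks in centromeric flanks (365 of 694, 48.8% to 56.4%) and 2.87% in other flanks (10 of 349, 1.38% to 5.21%), where 9.62% of all autosomal peaks with a recovered value had one. It includes tags of neighbouring peaks. Beside a stretch the 10 kb also reach into sequence or gap without peaks, which can lower it.

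The surrounding signal was highest beside the centromeric stretches. Its median was 340 tags per 10 kb in the nearest 50 kb (318 to 384) and 250 at 50 to 100 kb (227 to 271). At 500 to 1000 kb it was 137 (122 to 159), and in the next Mb 107. In other flanks the medians of the 5 bins were 75.6 to 92.7. The flank median was above that of the remaining peaks of the same chromosome in 29 of 36 centromeric flanks and in 8 of 40 other flanks. Among centromeric flanks it was lowest before the stretch of chromosome 18, at 69.9 from 4 peaks, and highest before that of chromosome 12, at 808 from 7 peaks. In other flanks 49 of 365 peaks (13.4%) had the lowest background that the caller allows, 73.7 tags per 10 kb. In centromeric flanks 17 of 754 peaks (2.25%) had it, where the share over all autosomal peaks was 6.93%. For peaks at this minimum the recovered signal is an upper limit.

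**Figure D4:**
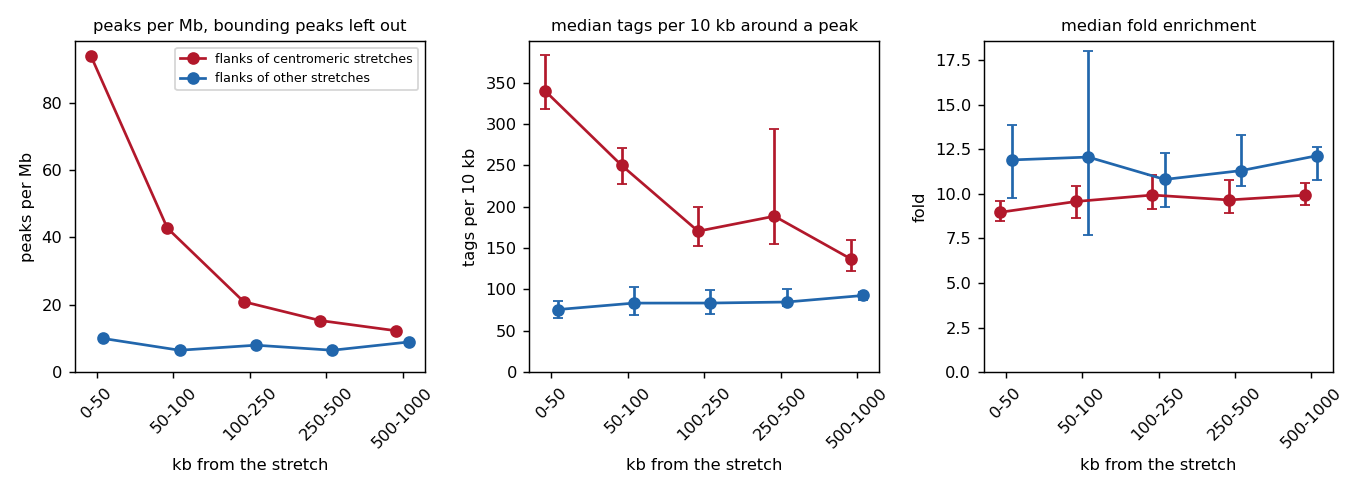
The panels give, by distance from the stretch in kb, peaks per Mb without the bounding peaks, the median tags per 10 kb around a peak and the median fold, with 95% intervals of the medians over peaks, for flanks of centromeric and of other stretches. In centromeric flanks peaks per Mb run from 93.9 to 12.3 and the surrounding signal from 340 to 137, while the fold lies between 8.96 and 9.93.

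Fold enrichment was lower in centromeric flanks in spite of their tags. Its median was 9.58 in centromeric flanks (9.3 to 9.9) and 11.66 in other flanks (10.82 to 12.32), against 10.82 in all other autosomal peaks (10.79 to 10.91). The interval of other flanks reaches the value of the remaining peaks. A fold of 10 or more was reached by 44.8% of the peaks in centromeric flanks (338 of 754, 41.2% to 48.5%) and 64.7% in other flanks (236 of 365, 59.5% to 69.6%), where 59.6% of all autosomal peaks reached it. A fold under 6 was found in 10.7% of the peaks of centromeric flanks (81 peaks, 8.62% to 13.2%) and 3.29% of those in other flanks (12 peaks, 1.71% to 5.67%), where the background share is 4.76%. The flank median of fold was below that of the remaining peaks of the same chromosome in 26 of 36 centromeric and 15 of 40 other flanks. Fold divides by the background that also gives the surrounding signal, so the 2 are not separate observations.

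The height of the summit, which is the part of the fold that does not contain the background, went the other way. Multiplying fold by the recovered background gave a whole number of overlapping fragments of 88 bp for 99.6% of the autosomal peaks with a recovered background, where whole means within 0.05 plus the error from the rounding of the fold, which had to be under 0.25. The median height was 22 fragments in centromeric flanks (20 to 24) and 11 in other flanks (11 to 12), against 12 in all other autosomal peaks (12 to 12). In the nearest 50 kb of centromeric stretches it was 34 (32 to 38), and at 500 to 1000 kb it was 16 (14 to 18). Peaks of centromeric flanks were thus taller in absolute terms and stood on a higher signal.

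Within ranges of surrounding signal, the median fold of centromeric flanks was close to or above that of the remaining peaks. Fold divides by the background from which that signal is computed, so each range also fixes much of the divisor. Only peaks with a recovered signal are included, and of the 15 centromeric peaks with the most tags 5 had one. Around a signal under 100 tags per 10 kb the median fold was 12.13 in centromeric flanks (122 peaks) and 12.34 in other flanks (226 peaks), against 12.22 in the remaining peaks. From 100 to 200 it was 10.1 (9.6 to 11.25) in centromeric flanks and 8.95 (8.48 to 9.85) in other flanks, against 9.63 (9.55 to 9.72). From 200 to 400 it was 9.13 (8.49 to 9.57) in centromeric flanks, against 8.26 (8.06 to 8.5), and from 400 upwards 8.05 (7.53 to 8.65), against 7.92 (7.36 to 8.35). In the last group centromeric flanks had 141 peaks, 20.3% of those with a recovered signal, whereas 1.004% of the remaining peaks fell there. Median tags and median length were lower in centromeric flanks than in the remaining peaks in each of the 4 ranges. From 200 to 400 the median was 48 tags (42 to 53) over 492 bp in centromeric flanks, against 69 tags (67 to 72) over 731 bp in the remaining peaks. The series has an input library of Kasumi-1 cells, but the peaks were called without it and it was not used here. From this list alone, JMJD1C binding and DNA that collects tags for other reasons cannot be told apart at these sites, and the part of the surrounding signal in the tag numbers was not tested.

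**Figure D5:**
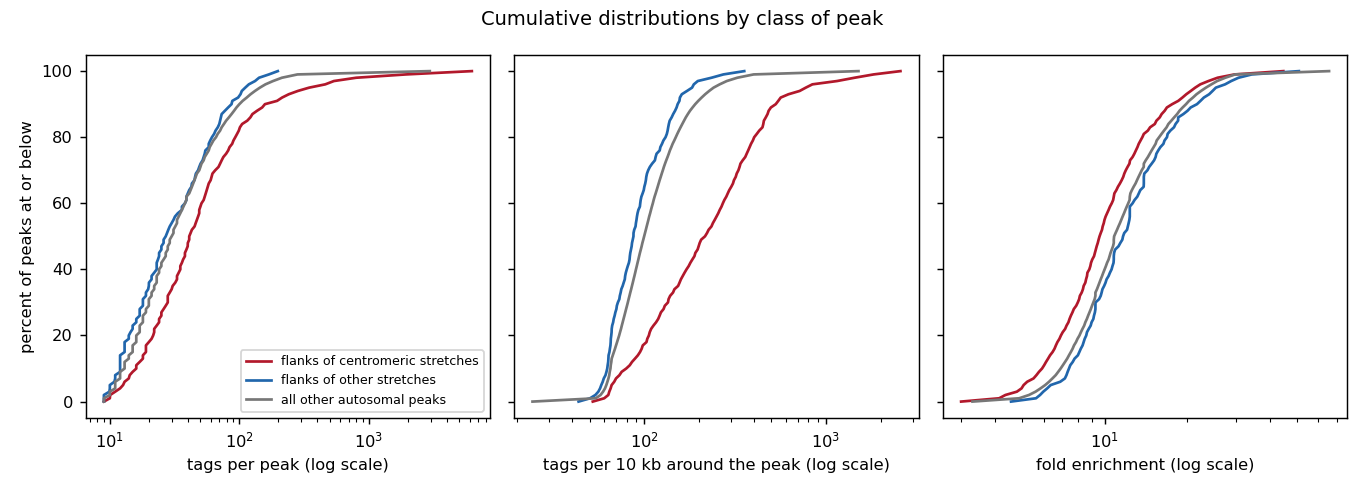
Curves give the percent of peaks at or below each value (log scale) of tags per peak, tags per 10 kb around the peak and fold, for centromeric flanks, other flanks and all other autosomal peaks. The centromeric curve lies to the right in the first 2 panels, with medians of 41 tags and 216 tags per 10 kb, and to the left in the third, with a median fold of 9.58.

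Both sides of the centromeric stretches contributed alike in sum. The flanks after the stretches held 389 peaks with 45288 tags, and the flanks before them 365 peaks with 45955 tags. Within a chromosome the sides often differed: the flank after the stretch had more peaks in 10 of 18 chromosomes and more tags in 11. Chromosome 7 had 58 peaks after its stretch and 24 before it. Chromosome 10 had 23 peaks with 7738 tags after its stretch and 47 peaks with 3771 tags before it. For the other stretches, the flanks after them held 173 peaks with 6988 tags and those before them 192 peaks with 7847 tags.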

How the data were processed

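Peaks were called by the authors with MACS 1.4.2 on 1 library without a control, per the file headers, with 1e-05 as p-value cutoff, 88 bp as fragment size and 2.7 Gb as effective genome. Duplicate tags were dropped (1 kept per position), a loss of 32.2%. The build was hg19 and the tools included HOMER and Bowtie2 2.1.0, per the submitters' processing notes. The deposited list gives for each peak its tags as whole counts, a score (10 times minus log10 p), a fold (a ratio of the summit to the background in 10 kb) and positions in bp. Keeping 1 tag per position caps the tags of narrow peaks, and the background includes the peak's own tags.

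To recover the local background, the Poisson probability behind each score was inverted for the expected tags. It was used where the tags per 10 kb came within 0.05 of a whole number (10% of arbitrary values would) or within 0.15 of the caller's minimum, and the signal outside the peak only for lengths up to 5000 bp. Recovery gave a value for 95.6% of the autosomal peaks, and the computation was tested on simulated data. The simulated scores and folds came from the formulas that the recovery inverts. They check the arithmetic, and not whether the caller's background is the one assumed. Medians have exact order-statistic intervals, shares have exact Clopper-Pearson intervals and tags exact Poisson intervals. None of them reflects replicates. Named peaks are the bounding pairs of the 10 longest stretches, the 15 and 8 peaks with the most tags beside centromeric and other stretches, the 5 of highest fold in each, and the flanks with the most and fewest peaks; peaks already described elsewhere are mostly not repeated. Members, classes and rules were chosen with earlier results of these data known. Alternatives changed the stretch length, the flank width, the score threshold, the centromere rule, the neighbour distance and the chromosomes used. Genes, repeats and sequences were left out for want of an hg19 reference. Software was SciPy 1.17.1, pandas 2.3.3, NumPy 2.4.6 and Matplotlib 3.10.9 under Python 3.11.15.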

Additional observations from a re-analysis of the deposited data

How the results depend on the processing

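Leaving out each of 19 chromosomes in turn was run for the number of peaks, median tags, median length, median fold and neighbour share of each kind of flank. It moved none of these beyond its interval, and no number by over 1.5 times. Centromeric stretches lie on 18 of these chromosomes and other stretches on 11. Leaving out a chromosome without a given kind of stretch removed no peak of that kind, which gives the upper ends of 754 and 365 peaks. Numbers of peaks ran from 672 to 754 in centromeric flanks and from 294 to 365 in other flanks, median tags from 40 to 43 and from 26 to 28, median lengths from 463 to 483 bp and from 445 to 475 bp, median folds from 9.53 to 9.67 and from 11.63 to 11.81, and shares with a neighbour from 71.4% to 73.7% and from 39.4% to 46.0%. Other settings moved the values as follows, and where the construction does not show the cause, the cause was not tested. With stretches of 2 Mb or more, other flanks had 1502 peaks. With 5 Mb or more, 4 stretches were left, and centromeric flanks had 122 peaks, a median fold of 9.165 and a neighbour share of 68.0%, other flanks 19 peaks, 12.38 and 21.1%. With flanks of 0.5 Mb, the neighbour share was 79.4% in centromeric flanks and 33.9% in other flanks, which had 186 peaks. With flanks of 2 Mb, centromeric flanks had 1206 peaks and a share of 63.8%, and other flanks 734 peaks. Among peaks scoring above the median of the list, centromeric flanks had 319 peaks, 72 tags, 592 bp, a fold of 12.63 and a share of 45.1%; other flanks had 187 peaks, 53 tags, 598 bp, 14.66 and 24.6%. The remaining peaks then had 54 tags, 628 bp and a fold of 13.94. Neighbours were counted among the kept peaks only, which can lower the share by construction. That share was not computed for the remaining peaks. With the longest stretch of a chromosome taken as centromeric, centromeric flanks had a fold of 10.07 and a share of 65.4%, and other flanks 36 tags, 10.18 and 58.1%. On chromosomes 2, 3, 4, 7, 8, 11, 14 and 18 the longest stretch does not hold the centromere. Any stretch there that does was then counted as other, so this setting mixes the classes by construction. Neighbours within 2 kb gave 38.1% in centromeric and 20.5% in other flanks (16.5% to 25.1%), where 19.9% of all autosomal peaks had one. At 2 kb other flanks were thus near the share over all autosomal peaks. Within 50 kb the shares were 91.5% and 75.6%, and the share over all autosomal peaks was not computed. Chosen after seeing the data, leaving out peaks within 50 kb of a stretch gave 36 tags in centromeric flanks, with 172 tags per 10 kb around them and a height of 19; other flanks without the peaks at the caller's minimum had 91.98 tags per 10 kb. No paired analysis was possible because the list comes from a single library. Depth limits weak peaks, the smallest of which has 9 tags.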
